A study of Homo sapiens with 6 samples.

Results

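DKK1, the Wnt antagonist that blocks the co-receptors LRP5 and LRP6, was described in T98G cells together with 9 other genes that set or read out Wnt signalling. These were the secreted inhibitors DKK3 and SFRP1, the feedback genes AXIN2, RNF43 and ZNRF3, the receptors LRP6 and FZD7, and the ligands WNT5A and WNT5B. The 10 genes were chosen by symbol from the 57133 symbols of the count matrix, with earlier results of the same comparison known, so their differences between conditions are given as descriptions. Where one of them is said to be called, this only places it in the fit over all genes, at FDR < 0.05, and is no independent test of it. All 10 symbols were found. The question was whether AXIN2, a widely used readout of β-catenin signalling, moved with DKK1 when CBX8 was put back.

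T98G is an established human glioblastoma line. All libraries came from a T98G CBX8 KO line, made by transfection of a CRISPR vector and puromycin selection, and no isolation of single clones is described in the study's methods. CBX8 is a chromodomain subunit of Polycomb repressive complex 1, which binds H3K27me3-marked chromatin. A doxycycline-inducible vector was added to the line, empty in 3 libraries (CBX8 KO) and with wild-type CBX8 in the other 3 (WT CBX8 re-expression). Both conditions had the reverse tetracycline transactivator, and per the labels all 6 libraries were from cells given 1 μg/ml doxycycline for 72 h. For the latter 3 the genotype label reads wild type, but the titles and methods describe CBX8 put back into the KO line, and these were followed. No library of unedited T98G cells was analysed here, so every fold change is WT CBX8 re-expression over CBX8 KO. An effect of vector expression level cannot be told apart from one of CBX8 at its native level. The methods describe stable lines made by lentiviral transduction and drug selection. Any other difference between the empty-vector and CBX8 lines thus cannot be told apart from an effect of CBX8.

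Total counts per library lay between 7950190 and 8659796. CBX8 itself had 96, 104 and 83 counts in CBX8 KO replicates 1 to 3 and 30372, 31408 and 27791 counts upon WT CBX8 re-expression, so all 6 libraries matched their labels in direction. Libraries of 1 condition differed by more than sampling noise (chi-square per degree of freedom 1.96 to 2.9), so all 6 were kept as separate samples. Neither labels nor methods say whether they came from separate cultures, so each SD describes spread between libraries that may be technical. Of the 10 glioblastoma line markers, VIM had 21563 to 24449 counts, CD44 20126 to 24273 and EGFR 2280 to 2738. MGMT had 93 to 117 counts, GFAP 13 to 30, OLIG2 14 to 38 and PDGFRA 5 to 16. SOX2 and S100B had 0 counts in every library and NES at most 4. Log2 fold changes were 0.85 for OLIG2, 0.68 for GFAP and 0.53 for PDGFRA (edgeR adjusted p = 0.056, 0.13 and 0.44), and -0.21 for CD44 (0.0097). VIM, MGMT and EGFR lay between -0.0031 and 0.0466 and were not called. Endothelial markers (4 genes) had at most 4 counts and immune markers (5 genes) at most 6. Summed CPM of the 7 fibroblast markers was 963.9 to 1020 in CBX8 KO and 1134 to 1176 upon re-expression, with COL1A1 and THY1 higher (log2 fold changes 0.98 and 0.47, edgeR adjusted p = 3e-06 and 4.6e-08) and the defining marker DCN at 0. Of the others tested, COL1A2 was at 0.11 (adjusted p = 0.13) and PDGFRB at -0.05 (adjusted p = 0.6). COL3A1 had at most 6 counts and LUM at most 4. Summed CPM of the 4 neuron markers was 11.29 to 13 in CBX8 KO and 13.94 to 16.69 with CBX8 put back, without overlap. SNAP25 (log2 fold change 0.37, adjusted p = 0.072) and SYT1 (0.25, adjusted p = 0.55) were not called, RBFOX3 had at most 1 count and STMN2 had 0. The part of these shifts in the differences below was not tested. In RNA from whole cultures, fewer cells of a type and less RNA per cell cannot be told apart.

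In canonical Wnt signalling, a Wnt ligand joins a Frizzled receptor to LRP5 or LRP6, which stops the complex of AXIN, APC and GSK3 from marking β-catenin for degradation. β-catenin then acts with TCF/LEF factors on target genes, several of which feed back on the pathway. AXIN2 rebuilds the destruction complex, RNF43 and ZNRF3 remove Frizzled receptors from the cell surface, and DKK1 takes LRP5 and LRP6 out of reach of the ligand. WNT5A and WNT5B usually signal through receptors such as ROR1, ROR2 and Frizzled without β-catenin, in cell polarity and migration. In glioblastoma, WNT5A is known for promoting invasion.

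DKK1 lies on the plus strand of chromosome 10 from 52314281 to 52318042 (hg38, GENCODE 44). Promoters of 4 of the 10 genes were in the RefSeq table (DKK1, RNF43, WNT5A and WNT5B). The 250 bases before the start of DKK1 are shown because they hold the only match to the forms of the TCF/LEF core motif searched. Other forms of the core were not searched. The bases were taken from RefSeq on GRCh38.p14, chr10:52314031-52314280, plus strand, and the capitals mark the match.
DKK1 promoter: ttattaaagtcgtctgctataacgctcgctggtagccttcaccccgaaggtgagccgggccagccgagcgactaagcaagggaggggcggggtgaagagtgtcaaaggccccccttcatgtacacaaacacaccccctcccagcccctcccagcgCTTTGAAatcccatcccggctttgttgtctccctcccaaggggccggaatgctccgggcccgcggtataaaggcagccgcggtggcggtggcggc
The motifs searched were CTTTGAA and CTTTGAT on both strands of the window from 250 bases before to 50 bases after the start. DKK1 held 1 match to CTTTGAA, beginning at position -95 on the plus strand, and the other 3 windows held none. The WNT5B window, 1616806 to 1617105 on chromosome 12, is not at the start of its canonical GENCODE transcript, 1629231. Of 27305 RefSeq promoters of this length, 6.98% held at least 1 of the motifs, as did 3.91% of the 9726 promoters of tested genes. The match is a description of the letters and not a binding site. The DKK1 window had a GC content of 63.67% and 20 CpG dinucleotides, against medians of 65.3% and 26 for promoters of tested genes. The stretch printed above also overlaps an exon of PRKG1-AS1, a long non-coding RNA transcribed from the other strand.

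Of the 10 genes, 9 passed edgeR's filter on low counts and RNF43 did not. DKK1, DKK3 and LRP6 were among the genes called higher upon WT CBX8 re-expression at FDR < 0.05, and WNT5A and WNT5B among those called lower. SFRP1, AXIN2, ZNRF3 and FZD7 were not called. The 5 calls compare with 12.9% called among all 14461 tested genes, 6.23% higher and 6.63% lower, and nothing is read from that difference because the genes were chosen on this comparison. In 6 of the 9 (DKK1, DKK3, AXIN2, ZNRF3, LRP6 and WNT5A), all 3 re-expression libraries lay on the same side of all 3 KO libraries, against 28.9% of all tested genes. The median log2 fold change of the 9 was -0.036, and that of all tested genes was 0.0049. The plot of CPM by library shows these genes on axes that start at 0.

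**Figure D1:**
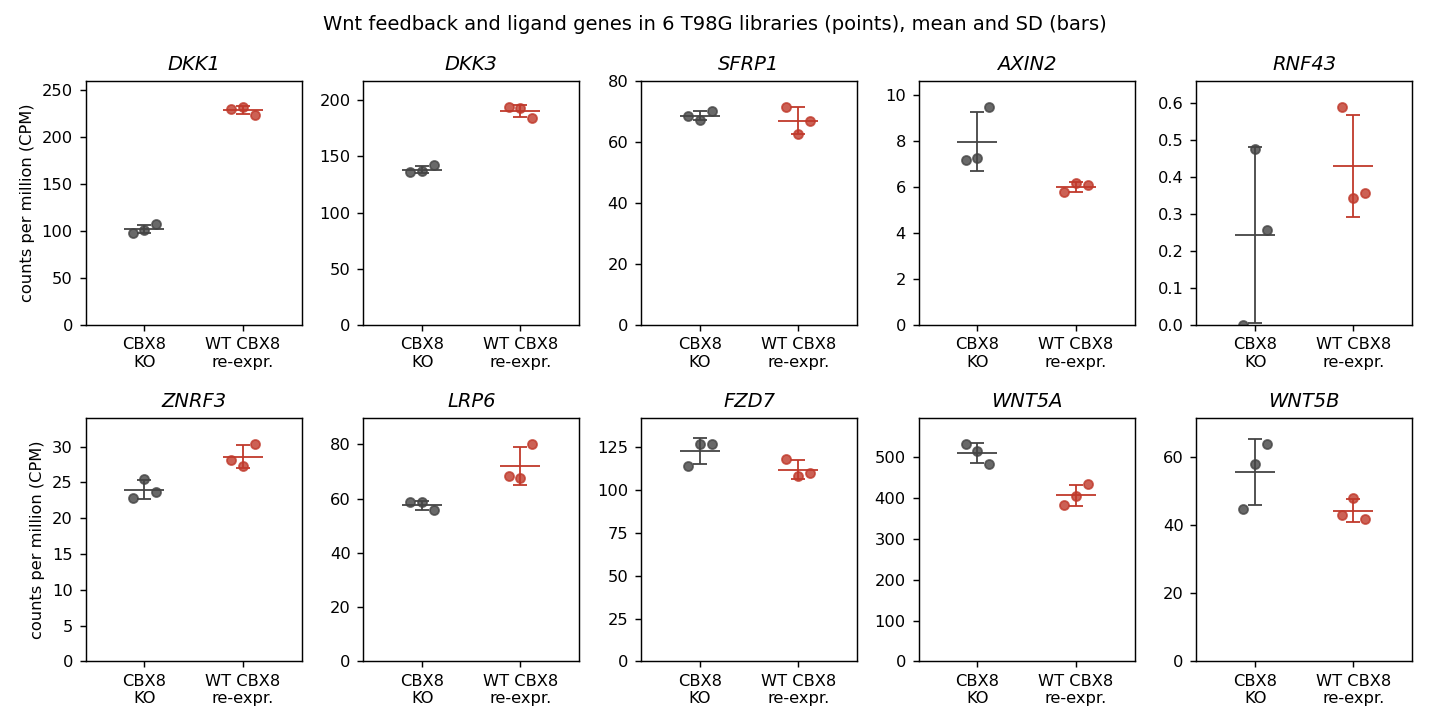
Level of each of the 10 Wnt genes in scaled counts (CPM, y axis, own scale per gene) in 3 CBX8 KO and 3 WT CBX8 re-expression libraries (points), with mean and SD (bars). DKK1 sits near 100 in CBX8 KO and between 224 and 232 upon re-expression, while the SFRP1, FZD7 and WNT5B points of the conditions overlap, and RNF43 stays under 1 CPM.

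Among the secreted inhibitors, DKK1 had 779, 851 and 833 counts in CBX8 KO replicates 1 to 3 and 1953, 2028 and 1878 counts upon WT CBX8 re-expression. In CPM, counts scaled to the TMM-normalized library size, these were 98.3, 101 and 107 in CBX8 KO and 230, 232 and 224 upon re-expression. Each re-expression library was thus above every CBX8 KO library, and the gap between conditions was many times the spread within either. Mean DKK1 was 102 ± 4.22 CPM (SD, n = 3) in the KO libraries and 228.3 ± 4.2 CPM (SD, n = 3) with CBX8 put back. The log2 fold change of DKK1 was 1.16 (standard error 0.05, 95% interval 1.06 to 1.27), a 2.24-fold difference, and it stayed between 1.13 and 1.22 in 14 alternative analyses. At its lowest count, counting error alone was 3.58%.

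Exons of DKK1 and PRKG1-AS1 overlap on opposite strands over 227 of the 1805 bases of the canonical DKK1 transcript. The strand setting of the counting is not given in the sources used here, so reads from the shared bases cannot be told apart. PRKG1-AS1, looked up after its neighbour's values were seen, spans 52230398 to 52314507 on chromosome 10. It had 127, 112 and 143 counts in CBX8 KO and 269, 269 and 229 upon re-expression, higher in all 3 re-expression libraries. Re-expression over KO, the log2 fold change of PRKG1-AS1 was 0.92 ± 0.11 (standard error), with an edgeR adjusted p of 1.2e-06. Its counts equalled 12.2% to 17.2% of those of DKK1 in the 6 libraries, so DKK1 counts exceeded PRKG1-AS1 counts several-fold in each. The part of shared reads in the difference of either gene, PRKG1-AS1 included, was not tested.

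DKK3, a divergent Dickkopf protein, does not share the LRP5 and LRP6 binding of DKK1. It lies on the minus strand of chromosome 11 from 11956207 to 12009769. DKK3 had 1079, 1152 and 1107 counts in CBX8 KO and 1652, 1693 and 1546 upon re-expression. Levels were 136, 137 and 142 CPM against 194, 193 and 184 CPM, with no overlap and the re-expression libraries higher. The mean was 138.2 ± 2.99 CPM (SD, n = 3) in CBX8 KO and 190.5 ± 5.63 CPM (SD, n = 3) upon re-expression, a log2 fold change of 0.46 (standard error 0.05, 95% interval 0.36 to 0.57). Both Dickkopf genes were therefore higher in each re-expression library than in any KO library, DKK1 with the larger point estimate. An exon of USP47 overlaps DKK3 on the other strand, and for USP47 the log2 fold change was 0.07 ± 0.06 (standard error) and the edgeR adjusted p was 0.49.

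SFRP1, which binds Wnt ligands through a Frizzled-like domain, lies on the minus strand of chromosome 8 from 41261962 to 41309473. It had 544, 566 and 549 counts in CBX8 KO and 608, 549 and 562 upon re-expression. In CPM these were 68.7, 67.2 and 70.3 against 71.5, 62.7 and 66.9, so the conditions overlapped. Its log2 fold change was -0.04 (standard error 0.06, 95% interval -0.17 to 0.09), with a sign that turned to 0.02 when only library size was used for scaling and to 0.01 without WT CBX8 re-expression replicate 2.

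Among the feedback genes, AXIN2 had a log2 fold change under 0 where that of DKK1 was above 0. AXIN2, the scaffold of the destruction complex that β-catenin induces, lies on the minus strand of chromosome 17 from 65528563 to 65561648. It had 57, 61 and 74 counts in CBX8 KO and 49, 54 and 51 upon re-expression, or 7.19, 7.25 and 9.47 CPM against 5.76, 6.17 and 6.07 CPM. The 3 re-expression libraries were the lower ones, without overlap, and CBX8 KO replicate 3 stood above the other 5 libraries. The mean was 7.971 ± 1.3 CPM (SD, n = 3) in CBX8 KO and 6 ± 0.214 CPM (SD, n = 3) upon re-expression. The log2 fold change was -0.41 (standard error 0.17, 95% interval -0.75 to -0.07). AXIN2 passed FDR < 0.05 neither in this fit nor in any of the 14 alternatives, and without CBX8 KO replicate 3 the log2 fold change was -0.27. Counting error alone was 14.3% at its lowest count, the highest of the 9 tested genes. AXIN2 exons overlap those of another protein-coding gene on the same strand, and how reads from the shared bases were counted is not given.

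Read per library, the distance between these genes widened. Each AXIN2 count was matched by 13.7, 14 and 11.3 DKK1 counts in CBX8 KO replicates 1 to 3, and by 39.9, 37.6 and 36.8 DKK1 counts upon re-expression. This ratio does not depend on how libraries were scaled, but it restates the values above and is no separate observation. DKK1 alone was 2.24-fold upon re-expression over KO, and AXIN2, which was not called, 0.75-fold. The plot of AXIN2 against DKK1 shows the libraries of each condition as separate clusters, so no correlation across libraries is given.

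**Figure D2:**
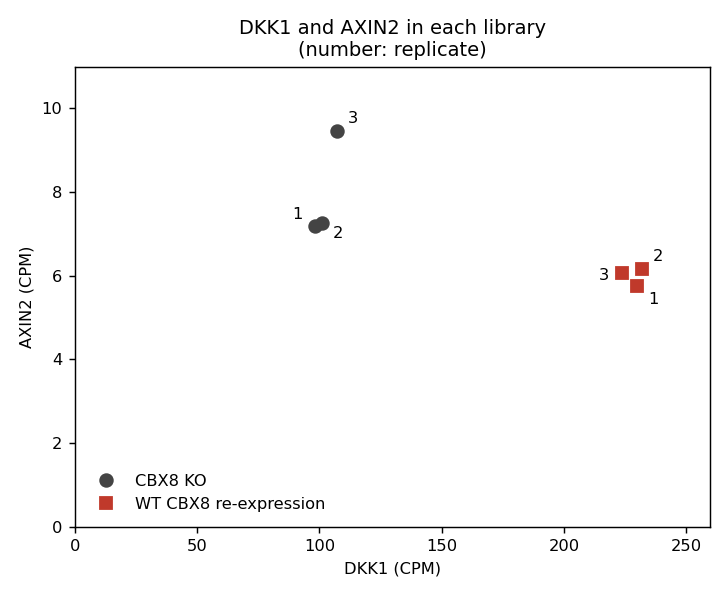
AXIN2 (y axis, CPM) against DKK1 (x axis, CPM) in each of the 6 libraries, numbered by replicate. Upon WT CBX8 re-expression the points move right, from 98.3 to 107 CPM of DKK1 to 224 to 232 CPM, and AXIN2 lies between 5.76 and 6.17 CPM instead of 7.19 and 9.47 CPM.

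RNF43 and ZNRF3 are paralogous transmembrane E3 ubiquitin ligases. RNF43 (chromosome 17, 58353676 to 58417595, minus strand) was near the detection limit, with 0, 4 and 2 counts in CBX8 KO and 5, 3 and 3 upon re-expression. A count of 0 allows up to 3 counts in that library, so no fold change is given. RNF43 exons overlap those of another protein-coding gene on the same strand and of TSPOAP1-AS1 on the other strand. How reads from the shared bases were counted is not given. ZNRF3 (chromosome 22, 28883572 to 29057488, plus strand) was the feedback ligase that T98G cells expressed at a measurable level. It had 181, 215 and 185 counts in CBX8 KO and 239, 239 and 255 upon re-expression, or 22.8, 25.5 and 23.7 CPM against 28.1, 27.3 and 30.4 CPM. The re-expression libraries were above the CBX8 KO libraries without overlap, and the log2 fold change was 0.25 (standard error 0.09, 95% interval 0.06 to 0.44). ZNRF3 was not called in this fit and was called in 1 of the 14 alternatives, scaling by library size only. AXIN2 and ZNRF3, both feedback genes of the pathway, thus had point estimates of opposite sign.

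Of the receptors, LRP6, the co-receptor that DKK1 binds, lies on the minus strand of chromosome 12 from 12116025 to 12267044. It had 464, 493 and 435 counts in CBX8 KO and 583, 593 and 674 upon re-expression, or 58.6, 58.6 and 55.7 CPM against 68.5, 67.7 and 80.2 CPM. All 3 re-expression libraries were higher, replicate 3 most. The log2 fold change was 0.32 (standard error 0.07, 95% interval 0.18 to 0.47), and it was 0.24 in the analysis that gave the lowest value. FZD7, a Frizzled receptor with a single coding exon, lies on the plus strand of chromosome 2 from 202033855 to 202038441. It had 906, 1071 and 990 counts in CBX8 KO and 1008, 943 and 921 upon re-expression, or 114, 127 and 127 CPM against 118, 108 and 110 CPM. The conditions overlapped for FZD7, and its log2 fold change was -0.13 (standard error 0.06, 95% interval -0.25 to -0.02). It was called in 1 of 14 alternatives, that without CBX8 KO replicate 1, at -0.18.

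Both ligands had log2 fold changes under 0. WNT5A (chromosome 3, 55465715 to 55490539, minus strand) had 4226, 4335 and 3772 counts in CBX8 KO and 3247, 3539 and 3645 upon re-expression. In CPM these were 533, 515 and 483 against 382, 404 and 434, without overlap and with the re-expression libraries lower. Mean WNT5A was 510.4 ± 25.6 CPM (SD, n = 3) in CBX8 KO and 406.6 ± 26.2 CPM (SD, n = 3) upon re-expression. WNT5A had a fitted log2 difference of -0.33 (standard error 0.05, 95% interval -0.44 to -0.22), and it was called lower in all 14 alternatives. WNT5B (chromosome 12, 1529891 to 1647212, plus strand), its paralog, had 356, 490 and 500 counts in CBX8 KO and 366, 421 and 352 upon re-expression, or 44.9, 58.2 and 64 CPM against 43, 48.1 and 41.9 CPM. CBX8 KO replicate 1 lay within the range of the re-expression libraries, so the conditions overlapped. The log2 fold change of WNT5B was also -0.33 (standard error 0.09, 95% interval -0.52 to -0.14), and its call was lost in 4 of 14 alternatives. One of those was scaling by library size only, at -0.27. The others left out CBX8 KO replicate 2, at -0.30, CBX8 KO replicate 3, at -0.22, or WT CBX8 re-expression replicate 3, at -0.29.

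Levels of different genes were compared as CPM per kilobase of the canonical transcript. In CBX8 KO the order was WNT5A at 87.4, DKK1 at 56.5, DKK3 at 54.7, FZD7 at 26.8, WNT5B at 24.9 and SFRP1 at 15.4 CPM per kilobase. LRP6 followed at 5.62, ZNRF3 at 3.5, AXIN2 at 1.87 and RNF43 at 0.0539 CPM per kilobase. Neighbours in this order had separate ranges over 3 libraries except DKK1 with DKK3 and FZD7 with WNT5B. Upon WT CBX8 re-expression, DKK1 came first at 126 CPM per kilobase, followed by DKK3 at 75.5 and WNT5A at 69.6, and the ranges of DKK3 and WNT5A overlapped. The remaining 7 kept their order, with AXIN2 at 1.41 CPM per kilobase. DKK1, DKK3, WNT5A, FZD7 and WNT5B were thus more than 10 times as abundant per length as AXIN2 and RNF43 in both conditions, as the plot of levels per kilobase shows. Exons of DKK1, DKK3, AXIN2 and RNF43 overlap those of other genes, and the part of read assignment in these levels was not tested.

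**Figure D3:**
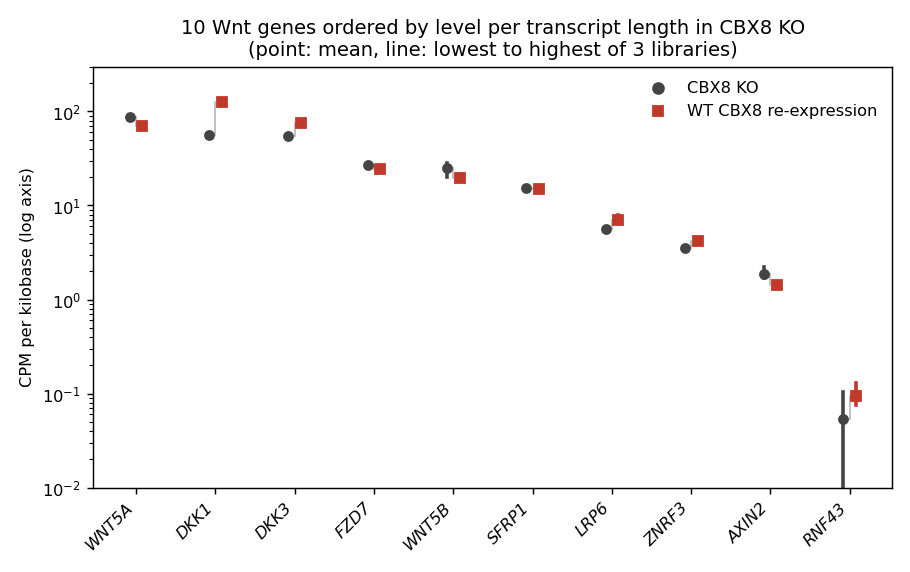
Mean level per kilobase of canonical transcript (y axis, CPM per kilobase, log scale) of the 10 genes, ordered by CBX8 KO, in CBX8 KO (circles) and WT CBX8 re-expression (squares), with lines from the lowest to the highest of 3 libraries. WNT5A leads in CBX8 KO at 87.4 and DKK1 leads upon re-expression at 126, and the RNF43 line of CBX8 KO runs off the axis because 1 library is at 0.

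The rest of the pathway was described with 130 other Wnt genes grouped by role, of which 81 passed the filter on low counts. At FDR < 0.05, 11 were lower and 10 higher upon WT CBX8 re-expression, 25.9% of the 81, where 12.9% of all tested genes were called, 6.63% lower and 6.23% higher. These lists too were chosen with earlier results of the same data known, so nothing is read from the difference between these shares. The median log2 fold change of the 81 was 0.0143, and the counts by role below are to be read beside the same background, with the same limit. Adjusted p-values in the paragraphs that follow come from the quasi-likelihood test of edgeR and were adjusted by Benjamini-Hochberg over all 14461 tested genes.

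Of 17 other ligands, 14 had at most 11 counts in any library and were not tested. WNT7B, a β-catenin-activating ligand, was the one called among the 3 tested. It had 27, 35 and 22 counts in CBX8 KO and 45, 65 and 53 upon re-expression, with every re-expression library higher (log2 fold change 0.87, standard error 0.21, adjusted p = 0.0057). Without WT CBX8 re-expression replicate 2 it was at 0.74 and no longer called (adjusted p = 0.054). Per kilobase of transcript, WNT7B stood at 0.876 CPM without CBX8 and 1.61 CPM with it, far under WNT5A. Neither of the genes needed for Wnt secretion, PORCN and WLS, passed the test.

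Of 15 tested receptors and co-receptors, 1 was higher and 2 were lower, and the median log2 fold change was -0.0033. LRP5, the second co-receptor bound by DKK1, had 210, 239 and 217 counts in CBX8 KO and 318, 350 and 332 upon re-expression. The groups did not overlap, and LRP5 rose by 0.50 ± 0.08 (standard error) on the log2 scale, at an adjusted p of 0.00016. Both DKK1-binding co-receptors thus had point estimates above 0. ROR1, a receptor tyrosine kinase for WNT5A, fell (log2 fold change -0.42, standard error 0.11, adjusted p = 0.0093), as did LGR4, a receptor for R-spondins (log2 fold change -0.24, standard error 0.06, adjusted p = 0.0048). The call of ROR1 was lost with DESeq2 (adjusted p = 0.061) and that of LGR4 without WT CBX8 re-expression replicate 2 (0.053). KREMEN1, which helps DKK1 remove LRP6 from the surface, had 313, 322 and 325 counts against 345, 340 and 333 (log2 fold change -0.0033, adjusted p = 0.99), and CKAP4, another DKK1 receptor, had a log2 fold change of -0.07 (adjusted p = 0.41). The sign of KREMEN1 depended on the scaling. LGR5 had 0 counts in every library.

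Of 21 other secreted modulators, 18 had at most 18 counts in any library, and none of the 3 tested (SOST, NDP and TPBG) was called, with 2 log2 fold changes under 0. NOTUM, a Wnt deacylase and feedback inhibitor, had at most 1 count. Among the cytoplasmic components, 1 of 22 tested was called, AMER1, a scaffold of the destruction complex that fell by 0.27 on the log2 scale (adjusted p = 0.029) and lost its call in 8 of 14 alternatives. CTNNB1, which encodes β-catenin, had 2018, 2281 and 2074 counts in CBX8 KO and 2165, 2279 and 2301 upon re-expression (log2 fold change -0.0046, 95% interval -0.11 to 0.10, adjusted p = 0.97). APC (log2 fold change 0.02, adjusted p = 0.91) and GSK3B (0.08, adjusted p = 0.42), its partners in degradation, were not called. NKD1, a feedback inhibitor that binds Dishevelled, had 16, 9 and 24 counts against 24, 30 and 30 (log2 fold change 0.68, standard error 0.30, adjusted p = 0.15). Its value rested on single libraries, at 0.36 without CBX8 KO replicate 2 (adjusted p = 0.55) and at 1.09 without CBX8 KO replicate 3 (adjusted p = 0.036).

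Of 12 nuclear factors tested, LEF1, a DNA-binding partner of β-catenin and itself a target, had 493, 480 and 452 counts in CBX8 KO and 404, 394 and 397 upon re-expression. It was lower in every re-expression library, at -0.34 on the log2 scale (standard error 0.07, adjusted p = 0.00098). TLE2, a Groucho co-repressor, was the one called higher (log2 fold change 0.90, standard error 0.21, adjusted p = 0.0036), from 27, 41 and 24 counts to 72, 56 and 54. TCF7 had a log2 fold change of -0.09 (adjusted p = 0.31), and TCF7L2 had at most 1 count in any library.

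Of 15 genes listed as Wnt targets, 9 were tested, 5 were lower and 3 higher, with a median log2 fold change of -0.20. CCN4 (deposited as WISP1), a secreted matricellular protein, had the smallest adjusted p of the 130 genes. Its counts were 446, 511 and 460 in CBX8 KO and 287, 270 and 265 upon re-expression (log2 fold change -0.87, standard error 0.07, adjusted p = 3.9e-09). MYC had 901, 957 and 850 counts in CBX8 KO and 631, 666 and 655 upon re-expression (log2 fold change -0.56, standard error 0.05, adjusted p = 3.5e-08). Neither gene overlapped between conditions. TNFRSF19 (log2 fold change -0.45), CD44 (-0.21) and JUN (-0.20) also fell, with adjusted p of 0.0043, 0.0097 and 0.017. CD44 lost its call without CBX8 KO replicate 1 (adjusted p = 0.076). JUN lost its call with library size only (0.095), with DESeq2 (0.065), and when CBX8 KO replicate 2 (0.13) or WT CBX8 re-expression replicate 2 (0.063) was left out. CCND1, which encodes cyclin D1, rose instead, from 2033, 2037 and 2093 counts to 2447, 2589 and 2654 (log2 fold change 0.23, standard error 0.05, adjusted p = 0.003). EPHB2 rose by 0.17 on the log2 scale (adjusted p = 0.031), and the 21st called gene, EPHB3, named outside the rule after its value was seen, by 0.59 (adjusted p = 0.042), with calls lost in 9 and 7 of 14 alternatives. Leaving out WT CBX8 re-expression replicate 1 put EPHB3 at 0.39 (adjusted p = 0.27). SP5, another β-catenin target, had 0 counts in CBX8 KO and 1, 2 and 1 upon re-expression. MYC and CCN4 both lie on chromosome 8, as does SFRP1. There 73 of 412 tested genes were lower and 21 higher, against 828 lower and 820 higher of 11974 on other chromosomes. The part of that in the differences of these genes was not tested. Within 5 Mb of MYC, with MYC and CCN4 left out, the median log2 fold change of 23 genes was -0.12, with 4 lower and 0 higher, and within 5 Mb of CCN4 that of 8 genes was 0.016, with 2 lower and 0 higher.

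Of 15 tested genes of planar cell polarity and calcium signalling, 4 were higher and 2 lower. CELSR2, a seven-pass cadherin of the polarity complex, rose from 33, 41 and 38 counts to 81, 92 and 95 (log2 fold change 1.17, standard error 0.16, adjusted p = 7.9e-06), a change close in size to that of DKK1. Its paralogs CELSR3 (log2 fold change 0.35, adjusted p = 0.0039) and CELSR1 (0.21, adjusted p = 0.021) were higher too, but CELSR1 lost its call with DESeq2 (adjusted p = 0.11) and when CBX8 KO replicate 2 (0.097) or WT CBX8 re-expression replicate 3 (0.12) was left out. PRICKLE1 and PRICKLE2, cytoplasmic polarity proteins, were at -0.61 (adjusted p = 0.00098) and 0.44 (adjusted p = 0.029), and the call of PRICKLE2, whose libraries overlapped between conditions, was lost in 5 of 14 alternatives. These were DESeq2 (adjusted p = 0.12) and leaving out CBX8 KO replicate 2 (0.17) or 3 (0.066), or WT CBX8 re-expression replicate 1 or 3 (0.12 each). DAAM2, a formin that links Dishevelled to the cytoskeleton, fell by 0.66 on the log2 scale (adjusted p = 0.0087), a call lost (adjusted p = 0.055) when WT CBX8 re-expression replicate 2 was left out. The plot of fold changes sets these genes beside DKK1 and the others of its group.

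**Figure D4:**
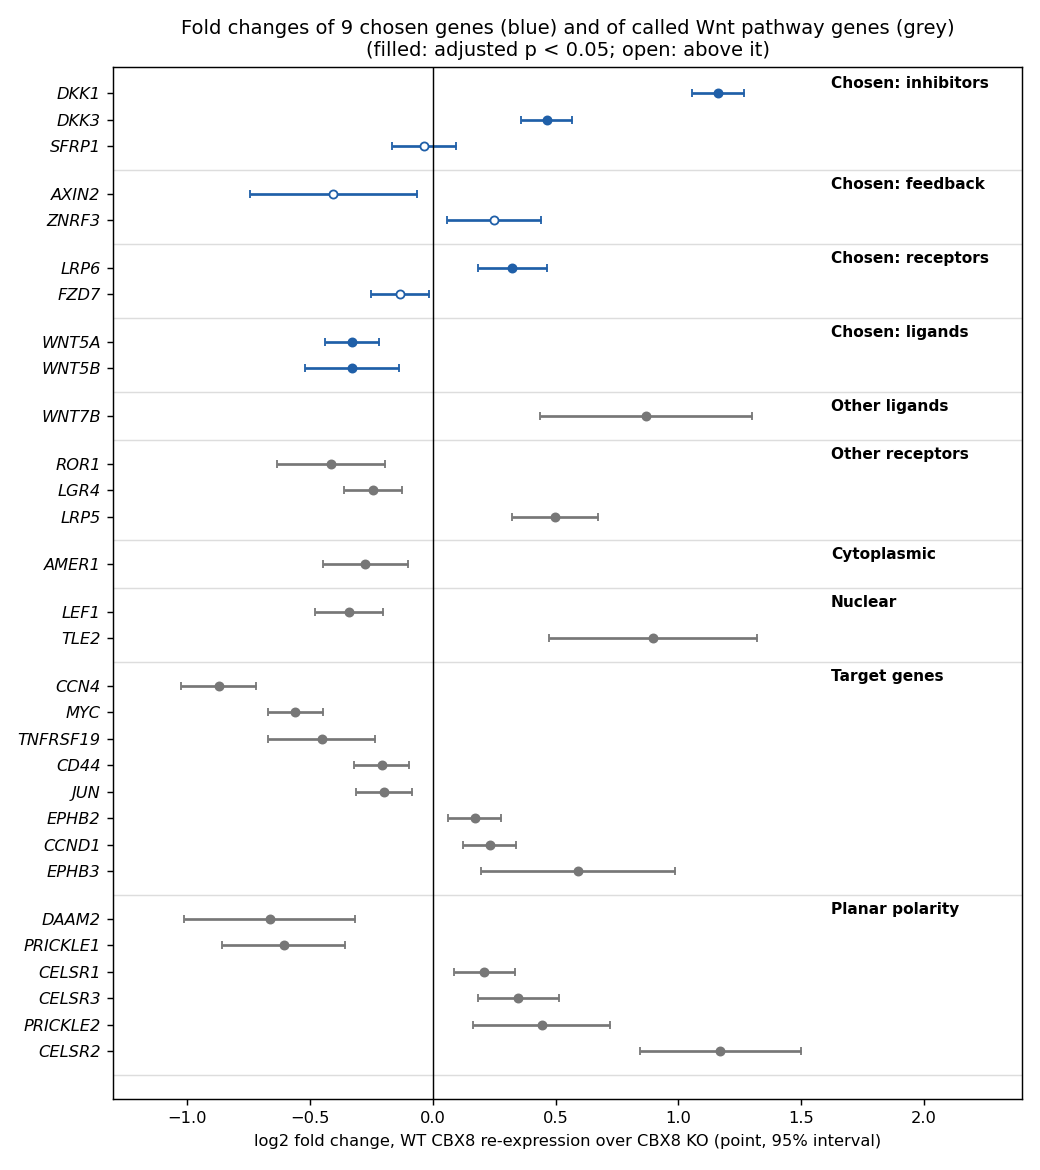
Log2 fold change (x axis, WT CBX8 re-expression over CBX8 KO, point with 95% interval) of the 9 tested genes of the DKK1 group (blue) and of the 21 called genes among 81 other tested Wnt genes (grey), by role. Filled points passed FDR < 0.05, and DKK1 at 1.16 and CELSR2 at 1.17 lie farthest to the right while CCN4 at -0.87 lies farthest to the left.

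The genes whose log2 CPM followed that of DKK1 most closely over the 6 libraries were SCARA3 (Pearson r = 0.9981), GDPD5 (0.9976) and GALNT16 (0.9973), among the 13588 whose log2 CPM averaged 1 or more. None of them is on the Wnt lists. Their own log2 fold changes were 0.42, 1.05 and 4.03, so likeness of pattern did not mean likeness of size. Those closest to AXIN2 were ZGRF1 (r = 0.9965), AC013489.3 (0.9854) and ARSG (0.9836), with log2 fold changes of -0.16, -0.26 and -0.39. None of these was called (edgeR adjusted p = 0.26, 0.069 and 0.067). Like AXIN2, each was highest in CBX8 KO replicate 3, at 31.7, 32.3 and 13.8 CPM. With 2 conditions of 3 libraries, these r values reflect the step between conditions, and for AXIN2 also the high CBX8 KO replicate 3. They are descriptions without a p.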

How the data were processed

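RNA-seq was analysed for 6 T98G libraries (100 bp paired-end, poly(A)). The file the authors deposited holds unnormalized counts for each symbol, made after trimming with Trimmomatic and alignment to hg38 with HISAT2. How reads were assigned to genes, including strand, is not given in the sources used here. The precision from depth covers counting error only.

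Genes were kept by filterByExpr and compared by edgeR 4.0.16 (TMM, glmQLFit, glmQLFTest, R 4.3.3) across all 14461 tested genes, with Benjamini-Hochberg adjustment and FDR < 0.05. The standard error is the absolute log2 fold change over the square root of F. The test was tested on simulated data. The 10 genes and all lists were chosen with earlier results of these data known, so no p over them is given. Named were CBX8, the 10 genes, at most 20 called genes of the other Wnt list by smallest FDR, 15 fixed pathway genes, and the 3 genes most like DKK1 and AXIN2. Positions came from GENCODE 44 and promoters from RefSeq. No copy elsewhere on the primary chromosomes of hg38 (95% of transcript bases, minimap2 2.31) was found for the 10 genes or the called genes of the other Wnt list. Copies on alternate contigs were found for WNT3, WNT9B, NKD2 and SCRIB, none of them called. The part of these copies in their counts was not tested. The alternatives tried were DESeq2 1.42.0, limma 3.58.1 voom, 3 other scalings (RLE, upper quartile, library size only), 2 other filters, a replicate block, and leaving out each library. Correlations of deviations for same-numbered libraries of the 2 conditions were -0.141, -0.0863 and -0.067, so numbers were not taken as pairs.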

Additional observations from a re-analysis of the deposited data

How the results depend on the processing

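DKK1 (log2 fold change 1.13 to 1.22), DKK3, LRP6 and WNT5A kept direction and call in all 14 alternatives, as did CBX8 (8.15 to 8.27), and AXIN2 kept its direction without a call (-0.47 to -0.27). Over all genes, 959 were lower and 901 higher. Scaling by library size only gave 592 and 1400 and moved the median of all genes to 0.0602. DESeq2 called 501 higher, and leaving out 1 library gave 635 to 851 lower and 593 to 792 higher, with the lowest of both without WT CBX8 re-expression replicate 2. Of the other Wnt genes, 7 to 11 were lower with 1 library left out, 7 without WT CBX8 re-expression replicate 2, and 6 to 9 were higher, 6 without CBX8 KO replicate 2. DESeq2 called 6 higher. The cause of these moves was not tested.

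Signs turned for 4 genes that were not called. By library size only, SFRP1 was at 0.0196, CTNNB1 at 0.0504 and KREMEN1 at 0.0522. Upper quartile scaling put CTNNB1 at 0.0079 and KREMEN1 at 0.0092. With 1 library left out, SFRP1 ran from -0.0870 to 0.0105, CTNNB1 from -0.0377 to 0.0159, KREMEN1 from -0.0322 to 0.0283 and APC from -0.0401 to 0.0820.

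A replicate block in the fit gave 766 genes lower and 739 higher, and 10 and 9 of the other Wnt genes, all of these also called without the block. DKK1 was at 1.16 and AXIN2 at -0.40 with it. No library correlated best with its own number. Low counts limit the precision for AXIN2, RNF43 and the 49 untested Wnt genes, which had at most 18 counts.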
